A study of Rattus norvegicus with 6 samples.

Results

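Cytosolic ribosomal protein genes were taken from the count table as the protein-coding rows whose symbol is Rpsa or has the form Rpl, Rps or Rplp followed by a number, with or without a final a or x. This rule found 83 rows of 20609, which carried 68 gene symbols. The large subunit held 52 rows with 42 symbols and the small subunit 31 rows with 26 symbols. Of the 79 standard rat names of cytosolic ribosomal proteins, 68 were covered. Rpl7a, Rpl10, Rpl21, Rpl36a, Rps9, Rps12, Rps13, Rps21, Rps26 and Fau are among those not analysed here under these names.

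PC12 is a rat cell line grown from a pheochromocytoma, which is a tumor of chromaffin cells. The 3 control libraries came from cells given a control plasmid, and the 3 PCBP1-OE libraries from cells given an EGFP-tagged PCBP-1 expression plasmid by lipid transfection. Both groups therefore carried a plasmid and had been through transfection, and PCBP-1, a poly(C)-binding protein, was the intended difference. The sources read state neither a selection of transfected cells, nor the share of cells that took up the plasmid, nor what the control plasmid encoded. The study calls the overexpression constitutive and stable. Poly-A RNA was sequenced, and reads were counted per gene, with 20268725 to 22315623 counts in the control libraries and 19730209 to 21367196 in the PCBP1-OE libraries. Because no row carried the symbol of PCBP-1, its own level could not be compared between the groups in these counts. The study reports a higher PCBP-1 mRNA level by RT-qPCR and more protein by western blotting in PCBP1-OE cells. The study speaks of biological replicates. Whether each came from its own culture or transfection was not stated in what was read, so the p-values measure the spread between these libraries.

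The labelled cell type was compared with its markers. The chromaffin cell genes Dbh, Ddc, Chga and Chgb had at most 5, 4, 3 and 9 counts in any library. Th had 141 to 185 counts and Scg2 2607 to 3553, while Sox10, a glial transcription factor, had 7160 to 9007 and Pdgfra 3939 to 4941. Of the chromaffin list, 10 of 12 genes were in the table and 5 of these stayed under 10 counts in every library. These counts go against the labelled cell type, so the values below describe the cells labelled PC12, whose identity was not settled here. The summed level of that list was 153 to 178 CPM (counts scaled to a common library size) in control and 143 to 159 in PCBP1-OE. The glial and neuronal list summed to 394 to 421 CPM in control and 378 to 398 in PCBP1-OE, the leukocyte list to 11.4 to 13.1 and 10.3 to 12.0, and the fibroblast and endothelial list to 219.6 to 225 and 203 to 216. Of the 4 tested genes of the glial and neuronal list, Gad1, Gfap and Sox10 had all PCBP1-OE libraries below all controls (3 of 4, where 16.5% of all genes did so), and the median log2 fold change of those 4 genes was -0.22. No gene of these 4 lists passed the test described below, and their part in the ribosomal protein results was not tested.

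Each cytosolic ribosome is built from a large and a small subunit, and nearly every ribosomal protein is present in a single copy per particle, so the genes are expressed together at a high level in growing cells. Their mRNAs begin with a C and a run of pyrimidines, the 5′ terminal oligopyrimidine (TOP) motif, through which mTOR and the La-related protein LARP1 control their translation and stability. PCBP-1 binds C-rich stretches of RNA through its KH domains.

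The sequences at the annotated transcript starts were read from RefSeq promoters of the rat assembly GRCr8, which covered 53 of the 68 symbols with 54 promoters. The windows below run from 15 bases before the start to 15 bases from it. Capitals mark a run of C or T, opened by a C and at least 5 bases long. In it, a C within 5 bases of the start is followed by at least 4 C or T. The first 6 genes fell in PCBP1-OE at the tested row on the same chromosome, and Rpl19 and Rpl27a did not pass the test. Rpl36, which fell, and Rpl3, which did not pass, are shown because no such run lay within 5 bases of the annotated start.
Rplp0: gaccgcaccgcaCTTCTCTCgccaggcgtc
Rpl10a: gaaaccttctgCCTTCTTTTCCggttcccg
Rpl31: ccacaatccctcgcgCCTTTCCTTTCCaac
Rpl34: CCCCTTCCTTTTCCTCTTCCggggacggtg
Rps10: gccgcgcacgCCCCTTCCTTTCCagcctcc
Rps23: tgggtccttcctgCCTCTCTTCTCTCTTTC
Rpl19: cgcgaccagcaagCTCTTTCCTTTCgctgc
Rpl27a: cgagacttggtgggCTCCTCCCTCTTTCTT
Rpl36: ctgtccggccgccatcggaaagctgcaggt
Rpl3: ccagcgcctgctcgatctctatcggcggcg
The windows lie at chr12:46718376-46718405 (Rplp0, minus strand), chr20:6390518-6390547 (Rpl10a, plus), chr9:49143096-49143125 (Rpl31, plus) and chr2:221962269-221962298 (Rpl34, minus). Those of Rps10, Rps23 and Rpl19 lie at chr20:5700730-5700759 (minus), chr2:23814502-23814531 (plus) and chr10:83519049-83519078 (plus). Those of Rpl27a, Rpl36 and Rpl3 lie at chr1:172974558-172974587 (plus), chr9:1533765-1533794 (plus) and chr7:113507976-113508005 (minus).

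A run with a C within 5 bases of the start, followed by at least 4 C or T, was found in 34 of the 54 ribosomal protein promoters (63.0%). Its share was 17.0% of all 33469 promoters. Within 20 bases the shares were 88.9% and 47.8%. Counting only rows on the RefSeq chromosome of their symbol, the run was found in 11 of 17 promoters of genes that fell (64.7%) and in 19 of 31 promoters of genes that did not pass (61.3%). Over the 300 bases of each promoter and both strands, CTTCCG, the core letters of ETS factor sites, occurred in 55.6% of ribosomal protein promoters and 16.6% of all promoters. GGGCGG, the GC box, occurred in 59.3% and 33.1%, AAGATGGC in 7.41% and 3.17%, and TATAAA in 9.26% and 14.2%. CTTCCG can overlap the pyrimidine run, and these matches describe letters and not bound sites.

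Ribosomal protein mRNAs took a smaller share of the reads in PCBP1-OE than in control. The 83 rows together held 6.31%, 6.22% and 5.81% of all counts in control replicates 1 to 3 and 5.44%, 5.50% and 5.79% in PCBP1-OE replicates 1 to 3. The groups did not overlap, although control replicate 3, at 5.81%, and PCBP1-OE replicate 3, at 5.79%, nearly met. Without the 5 rows with the most counts the groups did overlap, since the share was then 4.49% in control replicate 3 and 4.51% in PCBP1-OE replicate 3, with means of 4.76% ± 0.242 (SD, n = 3) in control and 4.33% ± 0.157 (SD, n = 3) in PCBP1-OE. Over all 83 rows the mean share was 6.12% ± 0.268 (SD, n = 3) in control and 5.58% ± 0.185 (SD, n = 3) in PCBP1-OE, a difference of -0.538 percentage points for which no test was made. In bulk RNA a change in the cells present and a change of the RNA per cell cannot be told apart.

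Other properties of the libraries stood beside this difference. The TMM scaling factors were 0.968, 0.983 and 1.01 in control and 1.03, 1.02 and 0.994 in PCBP1-OE. The mitochondrial chromosome held 8.42%, 8.24% and 7.99% of the counts in control and 7.53%, 7.91% and 8.21% in PCBP1-OE, with overlap of the groups. Genes with at least 1 count numbered 16950 to 17085 in control and 17153 to 17390 in PCBP1-OE. The part of these properties in the ribosomal protein result was not tested.

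**Figure D1:**
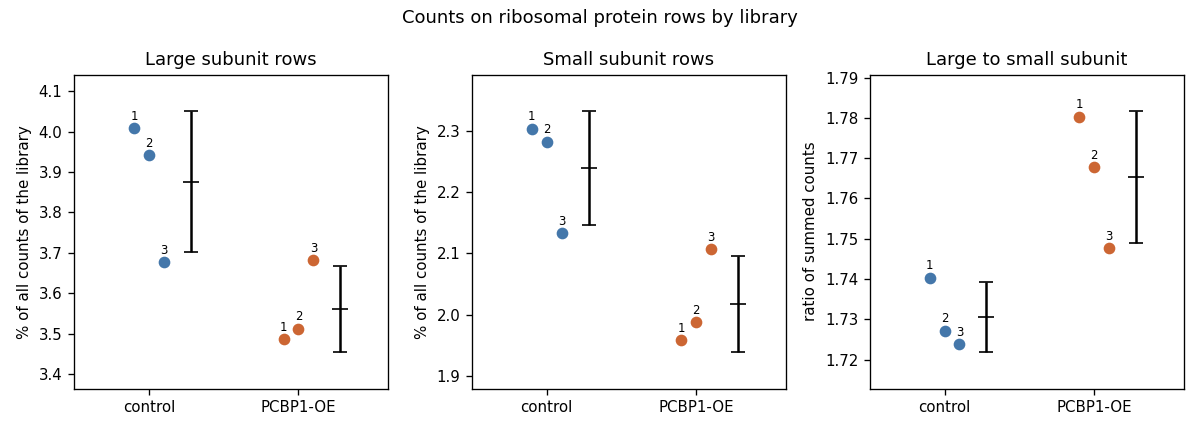
Share of all counts on large subunit rows (left, %), on small subunit rows (middle, %) and the ratio of large to small subunit counts (right) for control (blue) and PCBP1-OE (orange). Numbered points are replicates, the bars show mean and SD (n = 3), and the axes do not start at 0. Control replicate 3 and PCBP1-OE replicate 3 lie next to each other in the left and middle panels.

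Gene by gene, 75 of the 83 rows had enough counts for edgeR's quasi-likelihood test, and 24 of these fell in PCBP1-OE at an FDR of 0.05 (32.0%). Over all 12624 genes tested, 5.0% fell and 4.45% rose. No ribosomal protein row rose, none of the 59 rows with an unadjusted p under 0.05 was higher, and DESeq2 and limma-voom also called 0 higher. Without a filter on low counts 2 rows were called higher, Rpl8, from 10 counts that all lay in PCBP1-OE replicate 1, and Rplp2, which is described below. DESeq2 called 47 rows lower, where it called 5.96% of all genes so, limma-voom 30 (4.94%) and no filter 61 (4.91%). Fewer rows fell with upper-quartile scaling, at 9 (3.38% of all genes), and with library size alone, at 8 (2.05%). The log2 fold change was below 0 for 74 of the 75 rows, with a median of -0.19, against 0.0029 over all genes tested. All 3 PCBP1-OE libraries lay below all 3 controls for 25 rows (33.3%), where 16.5% of all genes did so, and for 0 rows they lay above.

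The changes were small. The 24 rows that fell had log2 fold changes of -0.26 to -0.17, or fell by 10.9% to 16.2%, so none reached a 2-fold change. The quartiles of the 75 log2 fold changes were -0.22 and -0.16. Rpl28 (FDR 0.0505) and Rps24 (FDR 0.0550) lay just outside the threshold, and Rps2 (FDR 0.0472) and Rps7 (FDR 0.0466) just inside it.

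The number of calls depended on single libraries. Leaving out control replicate 1, 2 or 3 gave 1, 0 and 62 rows that fell, and leaving out PCBP1-OE replicate 1, 2 or 3 gave 0, 0 and 33. The 1 call left without control replicate 1 was Rplp0 (FDR 0.0418). The median log2 fold change in the same order was -0.14, -0.16, -0.24, -0.15, -0.17 and -0.22, so its direction held without any of the 6 libraries. Over all genes, 11.4% fell without control replicate 3 and 2.79% without PCBP1-OE replicate 3. With all 6 libraries, 631 genes of the whole table fell and 562 rose. Without control replicate 1, 2 or 3, 246, 48 and 2860 genes passed in either direction, and without PCBP1-OE replicate 1, 2 or 3, 169, 136 and 697. The low counts without 1 library, here and for the subunits and lists below, thus stand beside few calls over all genes.

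The same libraries stood out in the level of each row. As the deviation of a row's log2 CPM from its own mean, the median over the 75 rows was 0.17, 0.13 and -0.02 in control replicates 1 to 3 and -0.15, -0.12 and -0.01 in PCBP1-OE replicates 1 to 3. Control replicate 1 was the highest library for 59 rows, and PCBP1-OE replicate 1 the lowest for 52. Control replicate 3 thus lay slightly below PCBP1-OE replicate 3, and the groups overlapped on this measure.

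**Figure D2:**
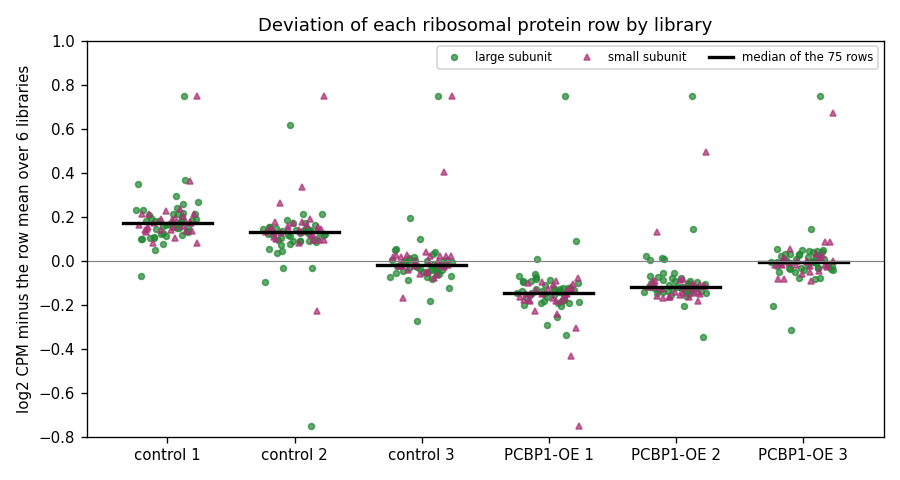
Each point is 1 of the 75 tested rows, plotted by library (x axis) as its log2 CPM minus the mean of that row over the 6 libraries (y axis), with green circles for the large subunit and purple triangles for the small. The black bar is the median, values beyond 0.75 are drawn at 0.75, and the rows of a library move together, high in control replicates 1 and 2 and low in PCBP1-OE replicates 1 and 2.

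Rplp0, the stalk base protein of the large subunit and a common reference gene for RT-qPCR, had the most counts of the large subunit rows (ENSRNOG00000001148, chromosome 12). Its level was 3367, 3349 and 3106 CPM in control and 2778, 2836 and 2871 CPM in PCBP1-OE, here and below in the order of replicates 1 to 3. Every PCBP1-OE library was below every control. It fell by 0.21 on the log2 scale (SE 0.0452, FDR 0.0179).

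The other stalk proteins, which form dimers on Rplp0 and contact the elongation factors, did not pass. Rplp1 (ENSRNOG00000013874) had 1289.8, 1298 and 1125 CPM in control and 1015, 1063 and 1201 CPM in PCBP1-OE, with a fitted difference of -0.18 on the log2 scale (SE 0.0673, FDR 0.101). PCBP1-OE replicate 3 lay above control replicate 3. Rplp2 (ENSRNOG00000002116) had 771, 4 and 699 counts in control and 574, 579 and 918 in PCBP1-OE. Control replicate 2 stood apart, with 0.192 CPM against a median of 31.2 CPM in the other 5 libraries, 163-fold below. The log2 fold change of Rplp2 was 0.52 (SE 0.623, FDR 0.624) and became -0.05 without control replicate 2 (FDR 0.917).

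Among the large subunit rows with the smallest p, Rpl31, a protein near the exit of the peptide tunnel, had 1225, 1109 and 1014 CPM in control and 894, 920.0 and 991 CPM in PCBP1-OE. The groups did not overlap. It fell by 0.26 on the log2 scale (SE 0.0637, FDR 0.0296). Rpl37 (ENSRNOG00000034180) fell by 0.25 (SE 0.0544, FDR 0.0178) and Rpl36 by 0.23 (SE 0.0542, FDR 0.0244).

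Rpl34 fell by 0.20 (SE 0.0535, FDR 0.0389). Rpl10a, the protein of the L1 stalk that guides the leaving tRNA, had 647, 657 and 624 CPM in control and 549, 557 and 602 CPM in PCBP1-OE. Its groups did not overlap, and it fell by 0.17 (SE 0.0472, FDR 0.0389). Rpl41, which encodes a very short basic peptide, had 1888, 1742 and 1525 CPM in control and 1399, 1436 and 1545 CPM in PCBP1-OE. Control replicate 3 was below PCBP1-OE replicate 3 for Rpl41, and it fell by 0.24 (SE 0.0675, FDR 0.0462). Rpl26 and a row of Rpl35a (ENSRNOG00000032303) were also among the large subunit rows that fell. The rows of Rpl37 and Rpl35a that fell lay on chromosomes 10 and 1, other than the RefSeq chromosomes of these symbols, and may be copies of the gene.

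Several large subunit genes with many counts did not pass. Rpl4, a protein that lines the peptide tunnel, had 2251, 2245 and 2197 CPM in control and 2065, 2091 and 2225 CPM in PCBP1-OE, with overlap. Its log2 fold change was -0.07 (SE 0.0441, FDR 0.330). Rpl6 was at -0.09 (SE 0.0480, FDR 0.227), Rpl19 at -0.16 (SE 0.0513, FDR 0.0656) and Rpl27a at -0.06 (SE 0.0522, FDR 0.509).

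Rpl3, whose loop reaches toward the peptidyl transferase centre, had 1499.7, 1495 and 1396 CPM in control and 1312, 1308 and 1355 CPM in PCBP1-OE. The groups did not overlap, yet the log2 fold change of -0.14 (SE 0.0447) missed the threshold (FDR 0.0597). Rpl5 and Rpl11, which join the 5S rRNA in a particle that can also bind Mdm2, did not pass either. Rpl5 was at -0.11 (SE 0.0552, FDR 0.193) and Rpl11 at -0.19 (SE 0.0575, FDR 0.0563). A p that misses the threshold does not show that these genes moved differently from those that passed.

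**Figure D3:**
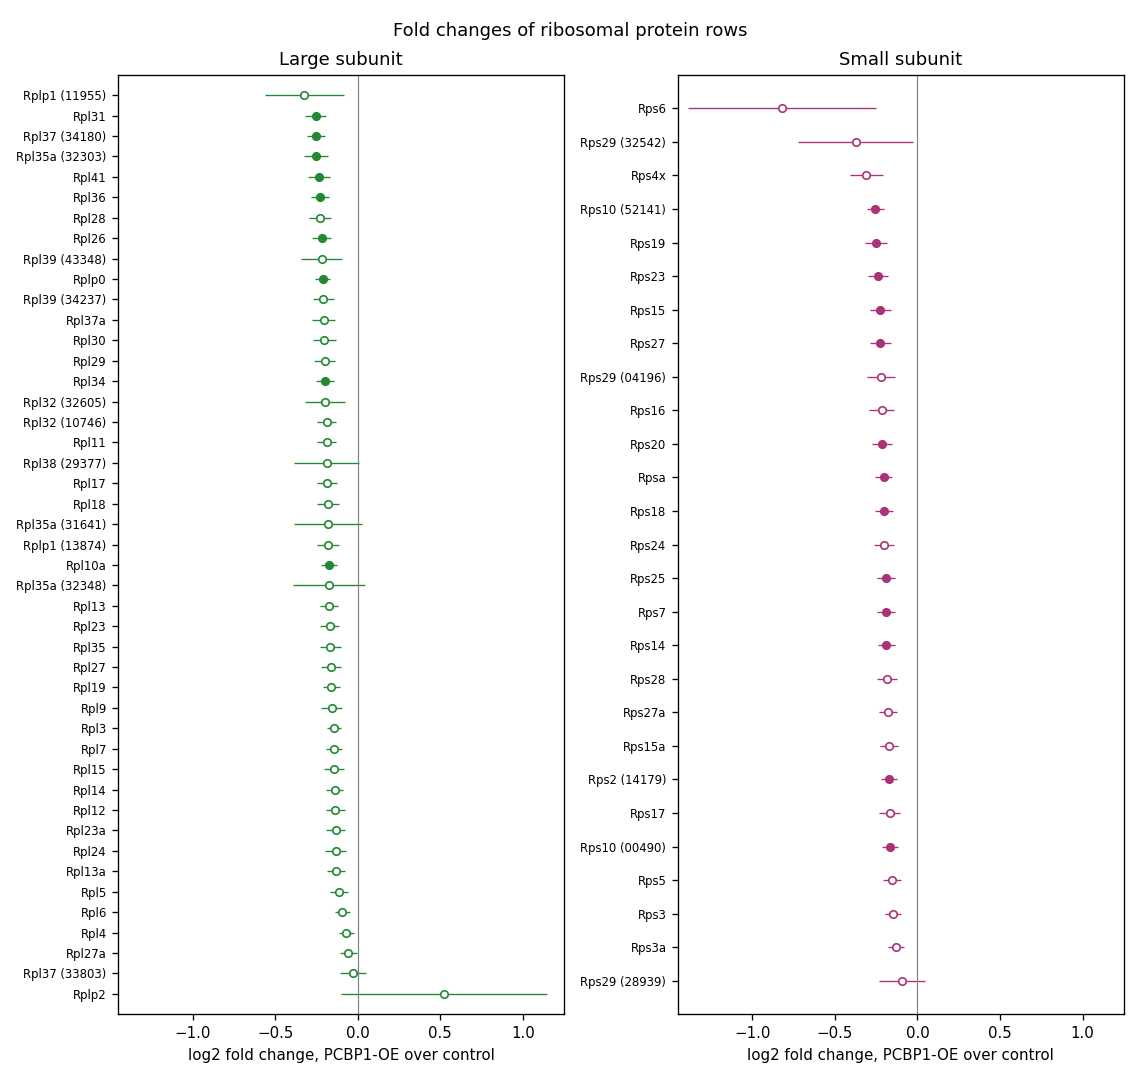
Log2 fold change of PCBP1-OE over control (x axis) with its standard error for tested rows of the large subunit (left) and the small subunit (right), ordered by value, without the few rows that are not reported by name. Filled points passed an FDR of 0.05, the last 5 digits of the gene identifier follow symbols that have several rows, and Rplp2 is the 1 point above 0.

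In the small subunit, Rpsa, which is also known as a laminin receptor, had 2220.0, 2177 and 2007 CPM in control and 1771, 1828 and 1958 CPM in PCBP1-OE. The groups did not overlap, and it fell by 0.20 (SE 0.0522, FDR 0.0321). Rps2, which sits at the mRNA entry site, had the most counts of the small subunit rows, with 3944, 3790.4 and 3681 CPM in control and 3187, 3369 and 3571 CPM in PCBP1-OE. It fell by 0.17 (SE 0.0499, FDR 0.0472), and all PCBP1-OE libraries were below all controls.

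Rps23, a protein of the decoding centre, had 821, 810.2 and 713 CPM in control and 631, 648 and 707 CPM in PCBP1-OE. The groups did not overlap, by a narrow margin between both replicates 3, and it fell by 0.24 (SE 0.0598, FDR 0.0303). Rps10 was tested in a pair of rows, which both fell. The row with the smallest p of all 75 (ENSRNOG00000052141, chromosome 6) had 174, 166 and 153 CPM in control and 133, 139 and 142 CPM in PCBP1-OE, and fell by 0.26 (SE 0.0529, FDR 0.0159). The row on chromosome 20, where RefSeq places Rps10 (ENSRNOG00000000490), fell by 0.17 (SE 0.0458, FDR 0.0409). Rps7, Rps14, Rps15, Rps18, Rps19, Rps20, Rps25 and Rps27 were also among the small subunit rows that fell, with FDR values of 0.0391 to 0.0466.

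Rps3, which lines the mRNA entry channel, did not pass, with a log2 fold change of -0.15 (SE 0.0493, FDR 0.0746). Rps27a, translated as a fusion with ubiquitin, was at -0.18 (SE 0.0551, FDR 0.0570). Rps16 was at -0.22 (SE 0.0754, FDR 0.0825).

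Rps6, the substrate of S6 kinase downstream of mTOR, stood apart in a single library. It had 5788, 5487 and 6464 counts in control and 264, 4444 and 4881 counts in PCBP1-OE. PCBP1-OE replicate 1, at 12.0 CPM, was 21.9-fold below the median of 263 CPM in the other 5 libraries. The log2 fold change was -0.82 (SE 0.570, FDR 0.372), and without PCBP1-OE replicate 1 it was -0.27 (FDR 0.0842). A row described as 40S ribosomal protein S6-like on the same chromosome, chromosome 5 (LOC100911372), had 3765, 3587 and 3311 counts in control and 3715, 2943 and 3360 in PCBP1-OE, with no such gap. Among 6504 genes with a mean of at least 500 counts, 4 cases of a gene more than 10-fold below the median of the others in 1 library were found, and Rps6 and Rplp2 were among them.

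**Figure D4:**
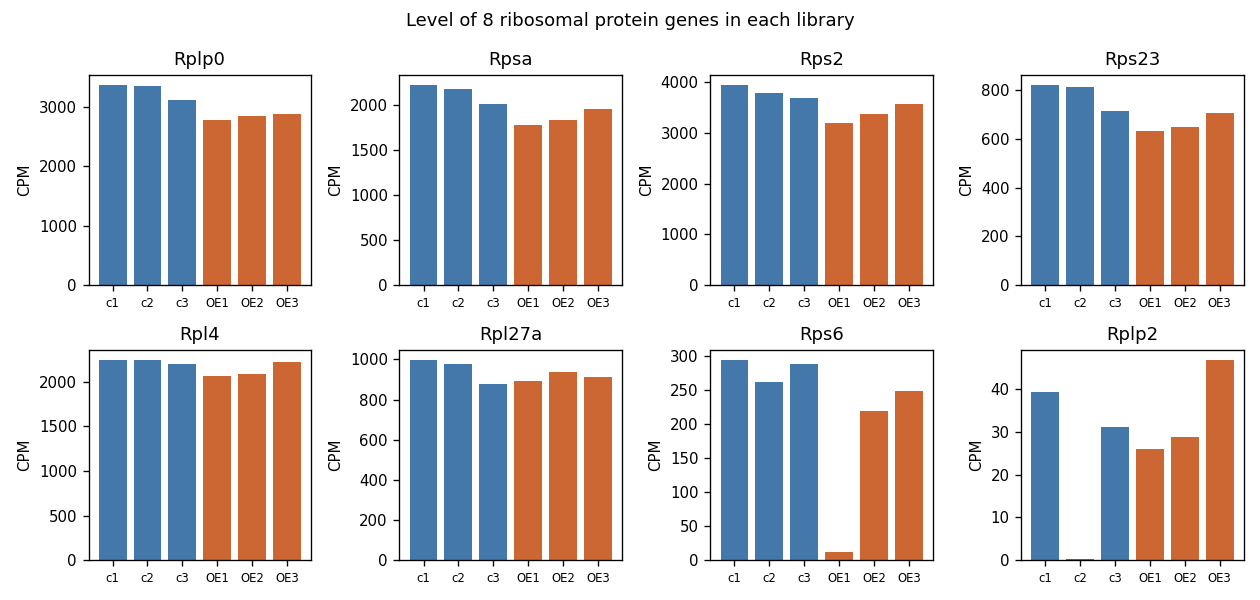
TMM-scaled CPM (y axis, from 0) of 8 genes in control replicates 1 to 3 (blue, c1 to c3) and PCBP1-OE replicates 1 to 3 (orange, OE1 to OE3). Rplp0, Rpsa, Rps2 and Rps23 fell, Rpl4 and Rpl27a did not pass the test, and Rps6 and Rplp2 each had 1 library far below the rest.

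The subunits were then compared. Of the large subunit, 10 of 46 tested rows fell (21.7%), with a median log2 fold change of -0.18. Of the small subunit, 14 of 29 fell (48.3%), with a median of -0.19. In both subunits these shares were above the 5.0% of all genes. Leaving out control replicate 1, 2 or 3 gave 1, 0 and 36 large subunit rows that fell and 0, 0 and 26 small subunit rows. Leaving out PCBP1-OE replicate 1, 2 or 3 gave 0, 0 and 16 large subunit rows and 0, 0 and 17 small subunit rows. No test of a difference between the subunits was made, because a score over chosen members gets no p.

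By share of counts, the large subunit held 4.01%, 3.94% and 3.68% in control and 3.49%, 3.51% and 3.68% in PCBP1-OE, where the replicates 3 met. The small subunit held 2.30%, 2.28% and 2.13% in control and 1.96%, 1.99% and 2.11% in PCBP1-OE, without overlap. The ratio of large to small subunit counts was 1.74, 1.73 and 1.72 in control and 1.78, 1.77 and 1.75 in PCBP1-OE. Its mean was 1.73 ± 0.0087 (SD, n = 3) in control and 1.77 ± 0.0164 (SD, n = 3) in PCBP1-OE, a difference of 0.0348 with all PCBP1-OE libraries above all controls. Without Rps6 and Rplp2, left out after their values were seen, the difference was 0.0264 and the groups still did not overlap. By the median deviation of rows, the large and small subunit lay at 0.1721 and 0.1694 in control replicate 1. In PCBP1-OE replicate 2 they lay at -0.1182 and -0.120. The large subunit thus stood further above the small in that control library, and the groups overlapped on this measure. In control replicates 2 and 3 the large subunit lay below the small, at 0.1203 and 0.141, and at -0.0262 and -0.0189. It lay above the small in PCBP1-OE replicates 1 and 3, at -0.1387 and -0.152, and at -0.0058 and -0.0131.

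Where several rows carried 1 symbol, as for 9 symbols with 24 rows, reads may be split between near-identical copies and each row is uncertain. Of the 83 rows, 63 lay on the chromosome that RefSeq gives for the symbol and 20 on another. Among tested rows, 21 of 62 on the RefSeq chromosome fell (33.9%) and 3 of 13 on another (23.1%), beside 5.0% of all genes. With the most counted row of each symbol alone, 23 of 66 fell (34.8%). The further row of Rpl37 (ENSRNOG00000033803) had 22.8, 24.9 and 24.9 CPM in control and 22.5, 24.0 and 24.8 in PCBP1-OE, and its log2 fold change was -0.03 (SE 0.0784, FDR 0.847). Rows of Rpl32, Rpl35a, Rpl38, Rpl39, Rplp1 and Rps29 were also among those with few counts, and the lowest tested were Rps29 (ENSRNOG00000032542) at -0.37 (SE 0.349, FDR 0.521) and Rplp1 (ENSRNOG00000011955) at -0.32 (SE 0.238, FDR 0.403).

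The 8 rows not tested were Rpl22, Rpl8 and a row each of Rps2, Rps29, Rpl35a and Rpl38, and a pair of Rpl39 rows. They held 1 to 22 counts over all 6 libraries. Rows of the table outside the rule whose description names a cytosolic ribosomal protein, a list made after the data were seen, numbered 179, of which 74 were tested. They held 1.32%, 1.31% and 1.21% of the counts in control and 1.12%, 1.13% and 1.20% in PCBP1-OE. Of these 74, 9 fell (12.2%) and 0 rose, beside 5.0% and 4.45% of all genes, with a median log2 fold change of -0.17. Leaving out control replicate 1, 2 or 3 gave 1, 0 and 32 that fell, with 2 that rose in the last case, and leaving out PCBP1-OE replicate 1, 2 or 3 gave 0, 0 and 9. By p, they were led by rows described as S4 X-linked (LOC100362640, -0.23, FDR 0.0112), the Fau product fubi with S30 (LOC100360647, -0.27, FDR 0.0282) and L21 (LOC100361103 on chromosome 12, -0.24, FDR 0.0307).

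Relatives of ribosomal proteins were counted as a list of their own, of which 6 were tested. Of these, 1 fell (16.7%) and 0 rose, beside 5.0% and 4.45% of all genes, so that share rests on 1 gene. Gnb2l1, the gene of the scaffold protein RACK1 on the small subunit, was at -0.13 (SE 0.0440, FDR 0.0737), with no overlap of the groups. Rpl22l1 was at -0.23 (SE 0.0806, FDR 0.0825), Rpl36al at -0.19 (SE 0.0595, FDR 0.0636), Rps27l at -0.13 (SE 0.0541, FDR 0.139) and Rpl7l1 at 0.15 (SE 0.111, FDR 0.388). The call of this list was lost without control replicate 1 or 2 or PCBP1-OE replicate 1 or 2, and without control replicate 3 it became 5 that fell and 1 that rose.

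Of 28 tested elongation factors and other genes with TOP mRNAs, 5 fell (17.9%) and 2 rose (7.14%), beside 5.0% and 4.45% of all genes, with a median log2 fold change of -0.06. Eef1d and Eef1b2, exchange factors of eEF1A, fell by 0.21 (SE 0.0524, FDR 0.0275) and 0.19 (SE 0.0518, FDR 0.0390), while Eif3a, the scaffold subunit of eIF3, rose by 0.26 (SE 0.0452, FDR 0.00886) and the RNA helicase gene Eif4a2 by 0.25 (SE 0.0452, FDR 0.0102). Ahcy and Tpt1 also fell, by 0.15 (FDR 0.0410) and 0.20 (FDR 0.0453). Leaving out control replicate 1 or 2 or PCBP1-OE replicate 1 or 2 gave 0 that fell, leaving out control replicate 3 gave 10, and 0 rose without control replicate 2 and 1 without PCBP1-OE replicate 1.

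Mitochondrial ribosomal proteins, which serve the separate ribosome of that organelle, fell for 5 of 73 tested genes (6.85%) and rose for 0, with a median of -0.08. The log2 fold change was below 0 for 64 of these 73 genes, where it was so for 6254 of all 12624 genes. Mrpl48 fell by 0.18 (SE 0.0462, FDR 0.0308), Mrpl4 by 0.20 (SE 0.0543, FDR 0.0369) and Mrps15 by 0.20 (SE 0.0554, FDR 0.0395). The share that fell was near the 5.0% of all genes. It was 24 genes without control replicate 3 and 0 without control replicate 1 or 2 or PCBP1-OE replicate 1 or 2.

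Of 65 tested ribosome biogenesis genes, which act in the nucleolus and in the assembly of both subunits, 2 fell (3.08%) and 6 rose (9.23%), beside 5.0% and 4.45% of all genes, with a median of 0.05. Riok3 rose by 0.18 (SE 0.0405, FDR 0.0201), Gnl3, the nucleolar GTPase nucleostemin, by 0.19 (SE 0.0455, FDR 0.0244) and Gtpbp4 by 0.18 (SE 0.0451, FDR 0.0321). Nop16 and Fbl, the methyltransferase fibrillarin, fell by 0.19 (SE 0.0532, FDR 0.0407) and 0.20 (SE 0.0556, FDR 0.0425). Without control replicate 3 the counts were 6 and 15, and without any other library 0 and 0.

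Of 17 genes of RNA polymerase I and its factors, Polr2f, a subunit shared by the nuclear RNA polymerases, fell by 0.29 (SE 0.0667, FDR 0.0221) and Twistnb rose by 0.20 (SE 0.0538, FDR 0.0390), with a median of 0.03 over the list. These single genes were 5.88% of the list in each direction, near the 5.0% and 4.45% of all genes. Without control replicate 1 the list had 0 that fell and 1 that rose, without control replicate 3 it had 2 and 1, and without any other library 0 and 0. Of 27 genes listed as regulators of TOP mRNAs, some of them broader transcription or RNA-binding factors, 0 fell and 2 rose (7.41%). Larp4b, an RNA-binding La-related protein, rose by 0.76 (SE 0.154, FDR 0.0146), and Myc, a transcription factor that drives ribosome production, rose by 0.25 (SE 0.0525, FDR 0.0178). Of 52 tested genes with a symbol of Eif and a number, 2 fell (3.85%) and 6 rose (11.5%), with a median of 0.03. This list holds translation initiation factors and also kinases and binding proteins that act on them. Eif2ak2, the interferon-inducible kinase PKR, rose by 0.36 (SE 0.0540, FDR 0.00485). In the list of regulators, 0 rose without control replicate 2 or PCBP1-OE replicate 1 or 2, 1 without control replicate 1 or PCBP1-OE replicate 3, and 5 without control replicate 3. The Eif genes that fell were 0 without control replicate 1 or 2 or PCBP1-OE replicate 1 or 2, and 8 without control replicate 3. Those that rose were 1 to 4 without any library other than control replicate 3, and 9 without that one.

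**Figure D5:**
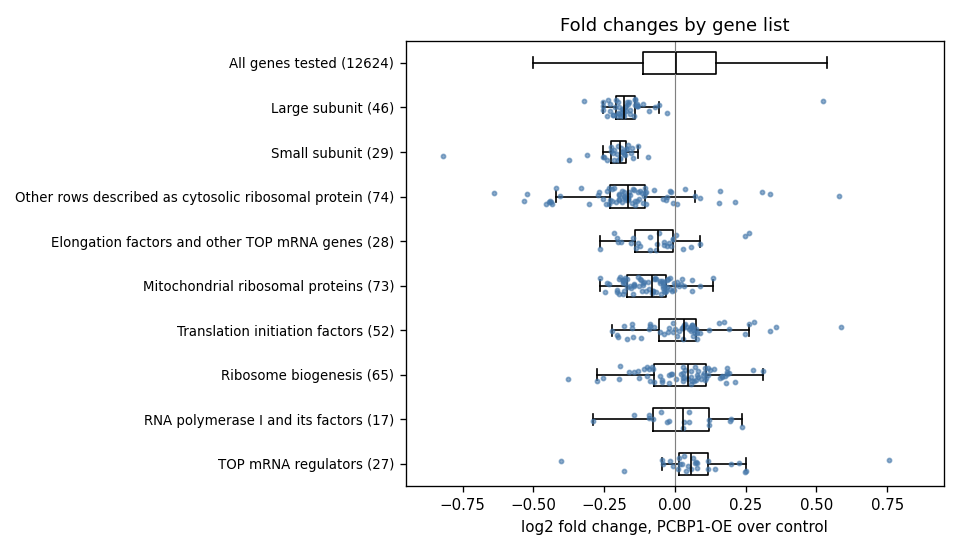
Log2 fold change of PCBP1-OE over control (x axis) for all genes tested and for 9 gene lists, with the number of genes in brackets. Boxes show the quartiles and median, and points are genes of the lists with random height. The boxes of both ribosomal subunits lie wholly below 0, while that of all genes is centred on it. Those of the other cytosolic ribosomal protein rows, the elongation factor and TOP list and the mitochondrial ribosomal proteins also lie wholly below 0.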

How the data were processed

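According to the study's methods, cleaned and trimmed reads were placed on the rat assembly Rnor_6.0 by TopHat2, and those with a unique position were counted per gene. The values the authors deposited are these counts, unnormalized. The processing notes of the submitters list bcl2fastq, TopHat2 and edgeR and name GRCh38, a human build; rat gene identifiers fill the table. Which program counted the reads, with which annotation and strand setting, was not given in the sources used here. Unique mapping leaves out reads that fit near-identical copies equally well, and ribosomal protein genes have many, so their counts are understated to an unknown degree.

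From these counts, genes were kept by filterByExpr (minimum count 10, minimum total 15), scaled by TMM and tested with edgeR 4.0.16 (R 4.3.3, quasi-likelihood test), with Benjamini-Hochberg FDR over all 12624 genes kept. CPM values use the TMM-scaled library totals, and shares of counts the unscaled totals. SE is the log2 fold change divided by the root of the F statistic. Alternatives used DESeq2 1.42.0 and limma 3.58.1, other scalings and filters, the replicate block, and each library left out. The test was checked on simulated counts, with larger changes than those of the ribosomal protein rows. That check does not cover changes as small as these. Tables and figures used Python 3.11.15, numpy 2.4.6, pandas 2.3.3 and matplotlib 3.10.9.

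The ribosomal protein rows and all gene lists were chosen with earlier results of these data known. No p is given for a list, a share or a ratio. Members were named if they were among the 10 with the smallest p that fell, among the 5 with the most counts of a subunit, in a list by role, at the ends of those that did not pass, or in rows sharing a symbol. From other lists, at most 3 genes that passed in each direction were named, apart from Ahcy and Tpt1, chosen after their values were seen. Lists were matched by symbol or by a RefSeq synonym, and sequences come from RefSeq promoters of GRCr8. Gene lengths and proteins were not used here, so read counts, which also depend on a gene's length, rank rows only by how many reads they drew, and levels per length were not compared between genes. Some ribosomal protein genes and relatives are not reported by name here, though they are part of the counts and medians.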

Additional observations from a re-analysis of the deposited data

How the results depend on the processing

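The median log2 fold change of the ribosomal protein rows, and of each subunit, stayed below 0 under all 17 alternatives, while the number of calls moved. In place of 24 rows that fell (10 large, 14 small), upper-quartile scaling gave 9 (5 large, 4 small), library size alone 8 (5 large, 3 small), no filter 61 (34 large, 27 small) and DESeq2 47 (25 large, 22 small). No filter also gave 2 higher rows, both of the large subunit. With edgeR's likelihood-ratio test 32 rows fell, 16 of them large subunit rows, beside 1624 genes called in either direction. The main test called 631 genes lower and 562 higher. Leaving out 1 library gave 0 to 62 rows that fell (0 to 36 large, 0 to 26 small), beside 48 to 2860 genes called in all. The median log2 fold change then ranged from -0.24 to -0.14, the difference in the share of counts from -0.691 to -0.440 percentage points and the difference in the ratio of large to small subunit counts from 0.0273 to 0.0436. Taken as the difference of median log2 CPM deviations, the share became -0.18 and the large to small difference 0.0159, both with overlap of the groups. The cause was not tested for any of these.

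The deviations of same-numbered libraries correlated at -0.0776, -0.0478 and -0.0362, and those of differently numbered libraries at -0.0147 to 0.0646. No pairing by number was seen in these values, which cannot tell whether libraries shared a culture or day. With the replicate block, 0 ribosomal protein rows fell (0 large, 0 small), 16 genes were called in all, and the median was -0.19. Of 696 alternative values for 41 named genes, 548 kept direction and side of the threshold, 53 newly passed it, 92 no longer passed it and 3 changed sign. These 3 were the further Rpl37 row (ENSRNOG00000033803), at 0.013 with library size alone and 0.011 without PCBP1-OE replicate 1, and Rplp2, at -0.053 without control replicate 2. Leaving out 1 library gave -0.061 to 0.011 for that Rpl37 row and -0.053 to 1.10 for Rplp2. In these counts 8 rows had too few uniquely placed reads to test, and why they had so few was not tested.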
